A study of Mus musculus with 6 samples.

Results

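The MHC antigen presentation genes were taken from the deposited gene table as every symbol that starts with H2- (the mouse major histocompatibility complex, MHC) together with Cd74, Ciita, B2m, Tap1, Tap2, Tapbp, Nlrc5, Rfx5 and Rfxap. The rule found 36 of 17854 genes, of which 22 belong to the class I pathway and 13 to the class II pathway. The remaining gene, H2-Ke6, lies between MHC genes but encodes a steroid dehydrogenase, and it was kept apart. Chromosome 17 carries 30 of the 36. They were measured by RNA sequencing in 2 groups of male C57BL/6 mice with 3 libraries each, all labelled chondrocyte. The group labelled Inject Prrx, called MSC-derived here, was made of Tomato+ cells sorted from repaired articular cartilage after Tomato+ mesenchymal stromal cells (MSCs) from Prrx1-Cre; R26 tdTomato mice, taken from their inguinal white adipose tissue, had been injected into knees of C57BL/6 hosts with osteoarthritis induced by anterior cruciate ligament transection. The group labelled Native Prrx, called endogenous here, was made of Tomato+ cells sorted from the knee cartilage of Prrx1-Cre; R26 tdTomato mice, matched in age and sex, that received no injected cells. In both groups, Cre expressed from the Prrx1 promoter, which is active in limb mesenchyme, had switched on tdTomato, and the label then stays with all descendants of a labelled cell. Cell source, host, surgery and disease all differ between the groups and cannot be told apart. The study states 3 mice for each group but does not say that each library came from a separate mouse. The p-values therefore measure the spread between these libraries only, which may be technical.

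MHC class I molecules sit on nearly all nucleated cells and show peptides of cytosolic proteins to CD8 T cells. They consist of a heavy chain and beta-2-microglobulin (B2m), and receive their peptides in the endoplasmic reticulum from the transporter Tap1-Tap2 with the help of tapasin (Tapbp). MHC class II molecules, pairs of an alpha and a beta chain, are normally made by macrophages, dendritic cells and B cells, and by other cells after interferon-gamma. The invariant chain (Cd74) fills their groove until the H2-DM dimer exchanges its remnant for a peptide, and H2-O inhibits H2-DM. Ciita is the coactivator that switches on class II genes and acts through a promoter module bound by the RFX proteins (Rfx5, Rfxap and Rfxank), Creb1 and NF-Y, while Nlrc5 plays this part for class I genes.

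Promoter sequences are shown first because some members that rose and some that fell share letters there. RefSeq windows (build GRCm38.p6, from 250 bases before to 50 bases after a gene's start) were found for 27 of the 36 members. CCAAT, the core letters that NF-Y binds, was present on either strand in 15 of 17 class I and 9 of 9 class II members with a window, and in 37.4% of all 32851 windows. A pair of longer patterns ending in ATTGG, the reverse complement of CCAAT, was also searched on both strands, so that each of their matches overlaps a CCAAT match. TGNTGAC followed by ATTGG 20 to 28 bases downstream (first base to first base) was present in 7 of 17 class I members, 0 of 9 class II members and 0.164% of all windows. AAC followed by ATTGG 27 to 34 bases downstream was present in 7 of 9 class II members (H2-Aa, H2-Eb1, H2-Eb2, H2-DMb1, H2-DMb2, H2-Oa and H2-Ob), 0 of 17 class I members and 4.64% of all windows. A member counted as matched if any of its windows matched, whereas the share over all windows is per window. These patterns were written after the sequences had been read, so the counts describe the windows and test nothing. Each stretch below runs 5′ to 3′ on the strand of its gene, and capitals mark the pattern. The first 6 are class I genes, of which B2m, H2-D1 and H2-K1 were higher in the MSC-derived libraries and H2-Q4, H2-Q6 and H2-Q7 lower. H2-M3, the remaining class I match, was also higher and is not printed. The last 4 are class II genes, all higher. H2-DMa, H2-T23, Tap1 and Tapbp, which were higher too, held neither of the longer patterns.
B2m (chr2:122147598-122147646, + strand): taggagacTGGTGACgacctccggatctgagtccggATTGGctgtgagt
H2-D1 (chr17:35262982-35263030, + strand): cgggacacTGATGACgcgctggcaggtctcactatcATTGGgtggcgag
H2-K1 (chr17:34000351-34000399, - strand): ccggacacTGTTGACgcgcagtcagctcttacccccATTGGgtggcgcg
H2-Q4 (chr17:35379502-35379550, + strand): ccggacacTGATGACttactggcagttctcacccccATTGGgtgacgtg
H2-Q6 (chr17:35424736-35424783, + strand): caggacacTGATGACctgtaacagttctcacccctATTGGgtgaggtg
H2-Q7 (chr17:35439080-35439127, + strand): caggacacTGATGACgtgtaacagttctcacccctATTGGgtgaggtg
H2-Aa (chr17:34287859-34287910, - strand): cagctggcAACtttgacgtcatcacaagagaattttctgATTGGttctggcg
H2-Eb1 (chr17:34305770-34305820, + strand): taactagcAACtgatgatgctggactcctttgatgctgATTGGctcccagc
H2-DMb1 (chr17:34153091-34153142, + strand): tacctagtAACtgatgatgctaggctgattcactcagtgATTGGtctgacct
H2-Ob (chr17:34238812-34238860, + strand): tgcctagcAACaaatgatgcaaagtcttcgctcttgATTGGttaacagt

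The expected counts, which are read counts as estimated per gene, summed to between 22060628 and 24881796 per library. The floor of 3 counts corresponds to 0.121 to 0.136 CPM, that is counts per 1000000 counts of the library, and covers counting error only. Endogenous replicate 1 stood apart from the other two endogenous libraries, with a chi-square statistic per gene of 53.4 and 56.6 against them, where all other pairs within a group gave 3.84 to 5.30, and with 3449 genes at 0 counts compared with 1323 to 1936 in the other libraries. Levels below are in TPM, which is scaled by transcript length and sums to 1000000 in each library. The 10 chondrocyte markers, of which Col2a1 and Acan are the best known, were lower in the MSC-derived libraries without exception, with a summed level of 435 to 447 TPM against 22973 to 24836 TPM, and none was at 0 in any library, although Matn1 passed the low-count filter only through the endogenous libraries. The labelled cell type is therefore carried by its markers mainly in the endogenous libraries.

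Most class II genes were far more abundant in the MSC-derived libraries, whereas class I genes were divided. With edgeR's quasi-likelihood test (Benjamini-Hochberg adjusted p of 0.05 or less over the 14289 genes tested), 31 members had enough counts to be tested. Of the 12 class II members tested, 10 were higher in the MSC-derived libraries, whereas 31.3% of all genes tested were higher and 30.3% lower, 61.6% in all. Ciita and H2-Oa, which are among these 10, passed the low-count filter only through the MSC-derived libraries. The median log2 fold change was 2.87 over the class II members tested and 0.05 over all genes tested. With edgeR, 0 class II members were lower, also at an unadjusted p of 0.05, and DESeq2 likewise called 0. Of the 18 class I members tested, 10 were higher, 4 lower and 4 past neither limit, and their median was 0.74. In 12 of 12 class II and 16 of 18 class I members the TPM ranges stayed apart between the groups in either direction, compared with 72.6% of all genes tested. For Rfx5, Rfxap and several class I members it was the MSC-derived libraries that had the lower TPM. Without endogenous replicate 1, 10 class II members were higher, and 12 class I members were higher and 6 lower, where 37.8% of all genes were higher and 38.6% lower. That fit tested 14728 genes, and its counts were not limited to the members tested with all libraries. In bulk libraries such as these, fewer cells of a type and less RNA per cell cannot be told apart.

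The result depends in part on the scale. Changes are given as edgeR log2 fold changes, MSC-derived over endogenous, with their standard error (SE). On log2 TPM tested with limma, the fold changes of the same genes were lower by a median of 0.398 to 0.414, and the higher genes made up 33.9% to 35.0% of all calls instead of 50.8%. A member with a small positive edgeR change can therefore have a lower TPM in the MSC-derived libraries, and this is said where it occurs.

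Among the class II alpha and beta chains, H2-Ab1, the beta chain of the I-A molecule, had 443, 413 and 440 TPM in MSC-derived replicates 1 to 3 and 42.0, 44.8 and 38.3 TPM in endogenous replicates 1 to 3. Its partner, the alpha chain H2-Aa, had 359, 367 and 359 TPM against 39.0, 29.4 and 28.5 TPM. All MSC-derived libraries lay far above all endogenous ones for both chains, and the log2 fold changes were 3.81 (SE 0.10, edgeR adjusted p = 1.37e-07) for H2-Ab1 and 3.93 (SE 0.10, adjusted p = 1.14e-07) for H2-Aa, or 14.0-fold and 15.3-fold. H2-Eb1, the beta chain of the I-E molecule, whose alpha partner is defective in C57BL/6 mice, had 137, 132 and 129 TPM against 29.1, 15.3 and 14.9 TPM. The groups did not overlap, endogenous replicate 1 held the highest endogenous value, and the log2 fold change was 3.22 (SE 0.21, edgeR adjusted p = 9.18e-06). H2-Eb2, a further beta chain gene, had 3 to 18 expected counts in the MSC-derived and 1 to 6 in the endogenous libraries and was too low to be tested.

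The invariant chain gene Cd74 was the most abundant class II member, at 1604, 1551 and 1562 TPM in the MSC-derived libraries and 161, 112 and 124 TPM in the endogenous libraries. The groups were far apart, with a log2 fold change of 4.02 (SE 0.10, edgeR adjusted p = 1.15e-07) or 16.3-fold. Cd74 and the alpha and beta chains kept similar proportions within the MSC-derived group, where Cd74 stood at 1.68 to 1.71 TPM per TPM of the summed alpha and beta chains, compared with 1.25 to 1.52 in the endogenous libraries.

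The peptide editing genes were all higher, but with unequal evenness among the endogenous libraries. H2-DMa, the alpha chain of the editor H2-DM, had 123, 125 and 122 TPM in the MSC-derived and 10.9, 5.88 and 10.9 TPM in the endogenous libraries, a log2 fold change of 4.05 (SE 0.18, edgeR adjusted p = 1.03e-06), which was the largest among the members tested. H2-DMb1, one of its beta chain genes, had 141, 142 and 133 TPM against 12.02, 43.4 and 40.2 TPM, a log2 fold change of 2.52 (SE 0.45, adjusted p = 0.00213). The groups of both genes were apart, yet endogenous replicate 1 was the lowest of its group for H2-DMb1 and not for H2-DMa. The ratio of H2-DMa to H2-DMb1 expected counts was 1.19 to 1.25 in the MSC-derived libraries and 1.298, 0.227 and 0.402 in endogenous replicates 1 to 3. Without endogenous replicate 1 the log2 fold change of H2-DMb1 was 2.05 and that of H2-DMa 4.01.

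H2-DMb2, the neighbouring beta chain gene, had 8.26, 10.1 and 8.32 TPM against 2.05, 2.05 and 2.41 TPM, with a log2 fold change of 2.47 (SE 0.27, edgeR adjusted p = 0.000139). H2-DMb1 and H2-DMb2 share sequence, with 22.7% of the 50-base windows in H2-DMb1 transcripts also present in H2-DMb2 (GENCODE M21), so reads could have been divided between them unevenly. Their summed counts stood at 2814 to 3261 in the MSC-derived and 188 to 684 in the endogenous libraries and were as clearly separated as either gene alone.

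Both chains of the H2-DM inhibitor H2-O were higher, at low levels. H2-Oa had 4.44, 3.67 and 3.47 TPM in the MSC-derived libraries and 0.29, 0.77 and 1.76 TPM in the endogenous libraries, the latter from 3 to 22 expected counts, with a log2 fold change of 2.41 (SE 0.68, edgeR adjusted p = 0.0172). H2-Ob had 2.91, 2.57 and 3.99 TPM against 1.29, 0.62 and 1.38 TPM, with a log2 fold change of 1.98 (SE 0.40, adjusted p = 0.00364). Neither gene overlapped between the groups, but the call for H2-Oa was lost when MSC-derived replicate 1, 2 or 3 or endogenous replicate 2 was left out (adjusted p = 0.0553 to 0.0731).

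Of the class II regulators, Ciita was higher and the RFX genes were not called. Ciita had 2.0, 2.35 and 1.64 TPM in the MSC-derived libraries against 0.08, 0.28 and 0.24 TPM in the endogenous libraries. No library of one group reached the other, and the log2 fold change was 3.46 (SE 0.50, edgeR adjusted p = 0.000646) or 11.03-fold. Ciita and H2-Oa had too few counts in the endogenous libraries to have passed the low-count filter there, so their being tested already required a higher level in the MSC-derived libraries. Rfx5, the DNA-binding subunit of RFX, had 2.98, 3.06 and 2.87 TPM against 3.09, 3.89 and 4.18 TPM, with a log2 fold change of 0.11 (SE 0.22, adjusted p = 0.680). Rfxap, a second RFX subunit, had 11.4, 13.3 and 12.2 TPM against 15.8, 16.4 and 18.04 TPM, with a log2 fold change of -0.01 (SE 0.15, adjusted p = 0.970). In TPM both RFX genes lay lower in every MSC-derived library than in any endogenous one, and with limma on log2 TPM Rfxap was called lower (log2 differences of -0.41 to -0.44, adjusted p = 0.0164 to 0.0174).

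Leukocyte markers were higher along with the class II genes. All 10 leukocyte and all 12 macrophage markers were higher in the MSC-derived libraries, with medians of 4.20 and 8.28 on the log2 scale and summed levels of 13718 to 14331 against 516 to 706 TPM and 22629 to 23357 against 740 to 944 TPM. Of the macrophage markers 5 (Adgre1, Cd163, Fcgr1, Mrc1 and Vsig4), of the dendritic cell markers 5 and of the B cell markers 5 had too few counts in the endogenous libraries to have passed the low-count filter there, so that being tested already required a higher level in the MSC-derived libraries. Of 10 dendritic cell markers 5 were higher and 1 lower (median 1.90, summed level 45.7 to 51.2 against 33.0 to 36.1 TPM), and 6 of 8 B cell markers were higher (median 2.96, summed level 299 to 316 against 24.0 to 31.1 TPM). Of all genes tested 31.3% were higher and 30.3% lower, 61.6% in all. The share of dendritic cell markers called in either direction was near that general share. In the endogenous libraries the leukocyte and B cell markers were all above 0, and the genes at 0 were Vsig4 of the macrophage list in replicate 2, and Cd209a in replicate 1 and Clec9a in replicate 3 of the dendritic cell list. The 10 mesenchymal markers were all lower, at 2174 to 2202 against 36277 to 46032 summed TPM. The name MSC-derived follows the study's account of the sort and is not borne out by these marker lists. No leukocyte gate was stated for the sort, and the part of these cells in the class II result was not tested.

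To set the class II genes beside a leukocyte gene, their expected counts were divided by those of Ptprc, the gene of the leukocyte surface protein CD45, which had a log2 fold change of 4.20 (SE 0.22, edgeR adjusted p = 2.81e-06), near that of Cd74. Cd74 stood at 3.50 to 3.84 counts per Ptprc count in the MSC-derived libraries and at 3.40, 4.73 and 4.79 in endogenous replicates 1 to 3, and H2-Aa at 0.734 to 0.760 and 0.730, 1.11 and 0.972. Endogenous replicate 1 lay below the MSC-derived libraries for both genes, and replicates 2 and 3 above them. The same held for H2-Ab1 (0.883 to 1.00 against 0.838, 1.81 and 1.40), H2-DMa (0.396 to 0.415 against 0.339, 0.433 and 0.642), H2-DMb1 (0.323 to 0.347 against 0.261, 1.91 and 1.60) and Ciita (0.019 to 0.025 against 0.010, 0.069 and 0.051). Endogenous replicate 1, the library that stood apart, thus made all of these ranges span those of the MSC-derived libraries, and without it none of these 6 genes overlapped per Ptprc count. H2-Eb1 was higher per Ptprc count in every endogenous library, at 0.802 to 0.909 against 0.416 to 0.456.

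The outcome also depended on the leukocyte gene chosen. Over the 10 leukocyte markers, the ratio of Cd74 overlapped between the groups for 5, and for 3 without endogenous replicate 1. Per Laptm5 count it was 0.597 to 0.603 in the MSC-derived and 1.04 to 3.27 in the endogenous libraries, and with all libraries it was likewise higher in the endogenous group per Cd53, Tyrobp and Fcer1g count. Only per Coro1a count was it higher in the MSC-derived libraries, at 2.58 to 2.61 against 1.38 to 2.37. The ratio of H2-Aa overlapped for 5 of the 10 markers (4 without endogenous replicate 1) and that of H2-Eb1 for 1 (0 without it). With all libraries, H2-Aa had the same directions as Cd74 for Laptm5, Cd53, Tyrobp, Fcer1g and Coro1a. H2-Eb1 was higher in the endogenous libraries for every marker without overlap, that is all but Coro1a. Set against Adgre1, the gene of the macrophage protein F4/80, Cd74 stood at 1.65 to 1.74 in the MSC-derived and 293, 30.9 and 17.8 in endogenous replicates 1 to 3, where Adgre1 had only 7, 52 and 106 counts. The class I gene H2-D1 stood at 10.1 to 11.2 counts per Ptprc count in the MSC-derived and 55.6 to 139 in the endogenous libraries.

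**Figure D1:**
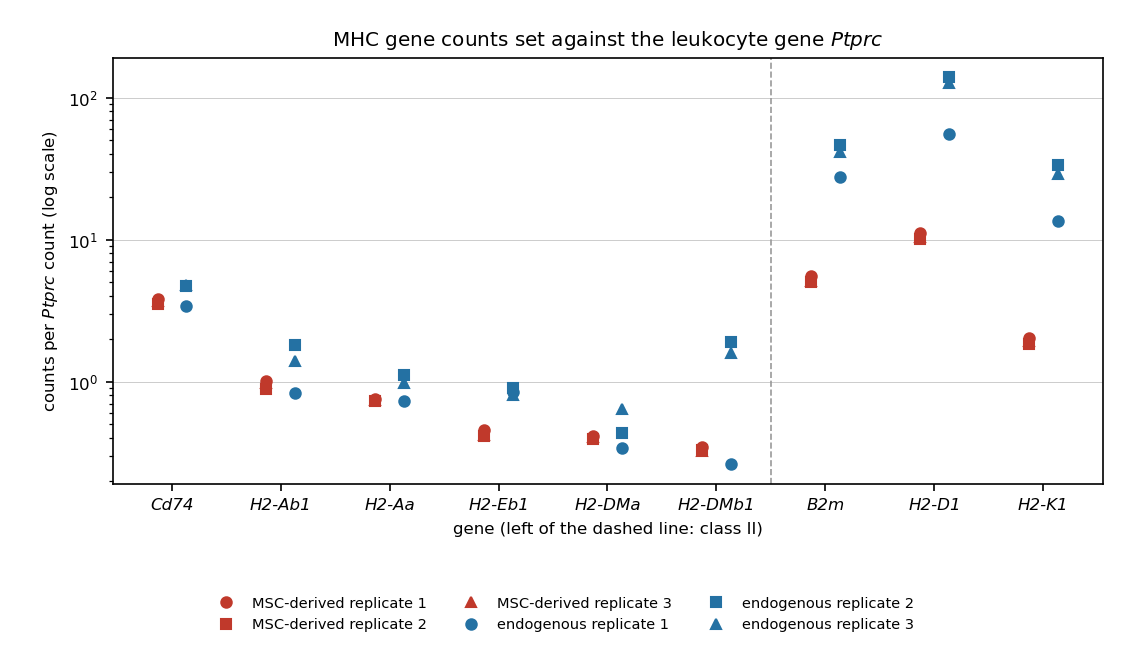
Expected counts of class II genes (left of the dashed line) and class I genes (right) divided by the Ptprc count of the same library, on a log axis, for 3 MSC-derived (red) and 3 endogenous (blue) libraries. For Cd74, H2-Ab1, H2-Aa, H2-DMa and H2-DMb1 endogenous replicate 1 (blue circle) lies below the MSC-derived libraries and replicates 2 and 3 above them, whereas for B2m the ratios were 5.04 to 5.52 against 27.7 to 46.3.

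Class I transcripts were abundant in both groups, and the classical members changed by less than the class II chains. B2m, the light chain shared by all class I molecules, had 3658, 3532 and 3436 TPM in the MSC-derived and 2065, 1721 and 1699 TPM in the endogenous libraries, with a log2 fold change of 1.39 (SE 0.06, edgeR adjusted p = 8.87e-07) or 2.63-fold. H2-D1, the classical heavy chain with the most transcripts, had 3202, 3076 and 3068 TPM against 1818, 2233 and 2240 TPM, with a log2 fold change of 1.00 (SE 0.13, adjusted p = 0.000375), which is a doubling. H2-K1, the other classical heavy chain, had 608, 584 and 582 TPM against 460, 564 and 535 TPM. The groups did not overlap for any of these genes, but for H2-K1 the lowest MSC-derived library (582 TPM) was close to the highest endogenous one (564 TPM). Its log2 fold change of 0.62 (SE 0.12, edgeR adjusted p = 0.00341) shrank to 0.19 with limma on log2 TPM, where the call was lost (adjusted p = 0.0867 to 0.112). The ratio of H2-D1 to H2-K1 TPM was 5.26 to 5.27 in the MSC-derived and 3.95 to 4.19 in the endogenous libraries, so H2-D1 rose more than H2-K1 on either scale.

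The peptide loading genes were higher by less than the class II genes. Tap1, a subunit of the peptide transporter, had 37.9, 34.9 and 35.8 TPM against 27.9, 21.4 and 21.2 TPM, with a log2 fold change of 1.08 (SE 0.10, edgeR adjusted p = 4.35e-05). Tap2, the second subunit, had 58.9, 55.7 and 57.7 TPM against 47.3, 41.3 and 41.0 TPM, with a log2 fold change of 0.86 (SE 0.07, adjusted p = 4.06e-05). Both transporter genes were apart between the groups. Tapbp (tapasin), which holds empty class I molecules at the transporter, had 152, 153 and 149 TPM against 127, 134 and 146 TPM. Here the groups nearly met, and the log2 fold change of 0.59 (SE 0.10, edgeR adjusted p = 0.00188) was 0.15 and not called with limma on log2 TPM (adjusted p = 0.1001 to 0.1012).

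Nlrc5, the class I coactivator, had 1.81, 2.01 and 1.99 TPM in the MSC-derived and 3.90, 1.58 and 1.24 TPM in the endogenous libraries. Endogenous replicate 1 lay above all MSC-derived libraries and the other endogenous libraries below them. The log2 fold change was 0.28 (SE 0.38, edgeR adjusted p = 0.543), and 0.80 (SE 0.18, adjusted p = 0.00036) without endogenous replicate 1, so 1 library decided this value. The contrast between Ciita and Nlrc5 was not tested as a difference.

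The H2-Q genes, nonclassical class I heavy chains, held all of the members that fell. H2-Q6, of the Qa-2 group, had 20.1, 19.6 and 18.7 TPM in the MSC-derived and 64.5, 74.3 and 73.4 TPM in the endogenous libraries, with a log2 fold change of -1.43 (SE 0.13, edgeR adjusted p = 4.72e-05), that is 2.69-fold lower. H2-Q9, also of the Qa-2 group, had 15.3, 11.3 and 10.4 TPM against 33.9, 46.7 and 49.1 TPM, with a log2 fold change of -1.31 (SE 0.25, adjusted p = 0.00284). H2-Q7, the third gene of that group, had 11.7, 15.5 and 16.8 TPM against 28.8, 57.2 and 40.4 TPM, with a log2 fold change of -0.99 (SE 0.32, adjusted p = 0.0285). All 3 were lower in every MSC-derived library than in any endogenous one. The call for H2-Q7 was the least steady, being lost on leaving out any library except endogenous replicate 1 (adjusted p = 0.0506 to 0.105). H2-Q4, which encodes the Qb-1 heavy chain, had 32.6, 35.3 and 31.5 TPM against 61.1, 86.5 and 88.5 TPM, with a log2 fold change of -0.82 (SE 0.19, edgeR adjusted p = 0.00731). These 4 genes were lower in every alternative analysis, including those on log2 TPM.

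Because H2-Q transcripts are so alike, reads can be divided between them, and single values are uncertain. Of the 50-base windows in its transcripts, 68.0% were found in no other gene for H2-Q6, 73.6% for H2-Q7 and 78.2% for H2-Q4, and H2-Q9 had no transcript in GENCODE M21. Summed over H2-Q4, H2-Q6, H2-Q7 and H2-Q9, which removes the division among them, the level was 77.5 to 81.8 TPM in the MSC-derived and 188 to 265 TPM in the endogenous libraries. This sum made up 1.85% to 1.97% of all class I heavy chain TPM in the MSC-derived libraries and 7.10% to 8.02% in the endogenous ones. The mean share was 4.01 times as high in the endogenous as in the MSC-derived libraries.

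None of the other H2-Q genes was called lower with edgeR on all libraries, although H2-Q10 was lower in TPM in every MSC-derived library. H2-Q10, which encodes a secreted class I protein, had 23.0 to 24.7 TPM against 27.8 to 43.9 TPM, with a log2 fold change of -0.17 (SE 0.21, edgeR adjusted p = 0.506). It was called lower without endogenous replicate 1 (-0.43, adjusted p = 0.00132) and with limma on log2 TPM (-0.55 to -0.57, adjusted p = 0.0205 to 0.0301). H2-Q10, which is not part of the sum above, shares 14.0% of its windows with H2-Q7, so reads could also have been divided between them. H2-Q1 had 4.35, 5.41 and 4.11 TPM against 2.17, 2.98 and 2.54 TPM, with a log2 fold change of 1.2 (SE 0.35, adjusted p = 0.0194), a call that was lost when any MSC-derived library was left out (adjusted p = 0.0547 to 0.0881). H2-Q2 was not tested and had 56 of its counts in endogenous replicate 1 and 0 to 11 in any other library.

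Of the 4 H2-T genes 2 were higher and 2 not called, and the only H2-M gene tested was higher, where 31.3% of all genes tested were higher. H2-T24 had 19.99, 16.3 and 19.5 TPM in the MSC-derived and 3.82, 2.1 and 3.51 TPM in the endogenous libraries, with a log2 fold change of 3.01 (SE 0.23, edgeR adjusted p = 1.90e-05), which was the largest of the class I members tested. H2-T23, which encodes Qa-1, the ligand of the CD94-NKG2A receptor of natural killer cells, had 249, 244 and 242 TPM against 59.7, 93.1 and 97.2 TPM, with a log2 fold change of 1.98 (SE 0.22, adjusted p = 0.000159). H2-M3, which presents N-formylated peptides of bacteria and mitochondria, had 52.3, 54.7 and 46.9 TPM against 6.48, 20.4 and 22.01 TPM, with a log2 fold change of 2.06 (SE 0.44, adjusted p = 0.00475). For all 3 the groups were well separated, and for H2-T23 and H2-M3 endogenous replicate 1 was the lowest library. Without that library the log2 fold change of H2-M3 was 1.60.

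H2-T22, a ligand of gamma-delta T cells, had 61.4 to 64.1 TPM against 66.0 to 77.9 TPM, a log2 fold change of 0.21 (SE 0.09, edgeR adjusted p = 0.0705) whose sign turned with limma on log2 TPM (-0.22). It shares 31.2% of its windows with H2-T10, so its counts are uncertain. The pseudogene H2-T-ps had 2.56 to 3.84 TPM against 1.65 to 3.21 TPM and a log2 fold change of 0.99 (SE 0.41, adjusted p = 0.0666), which was called with DESeq2 (adjusted p = 0.0432) and without endogenous replicate 1 (adjusted p = 0.00628). H2-M9 had 0, 0 and 1 expected counts in the MSC-derived and 0, 15 and 20 in the endogenous libraries, and H2-M2 and H2-M5 had at most 8 counts in any library. None of these 3 passed the low-count filter. H2-Ke6, the dehydrogenase gene, had 75.0 to 87.1 TPM against 46.4 to 52.0 TPM and a log2 fold change of 1.11 (SE 0.14, adjusted p = 0.000264), but 70.5% of its windows were shared with the readthrough gene Gm20427.

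**Figure D2:**
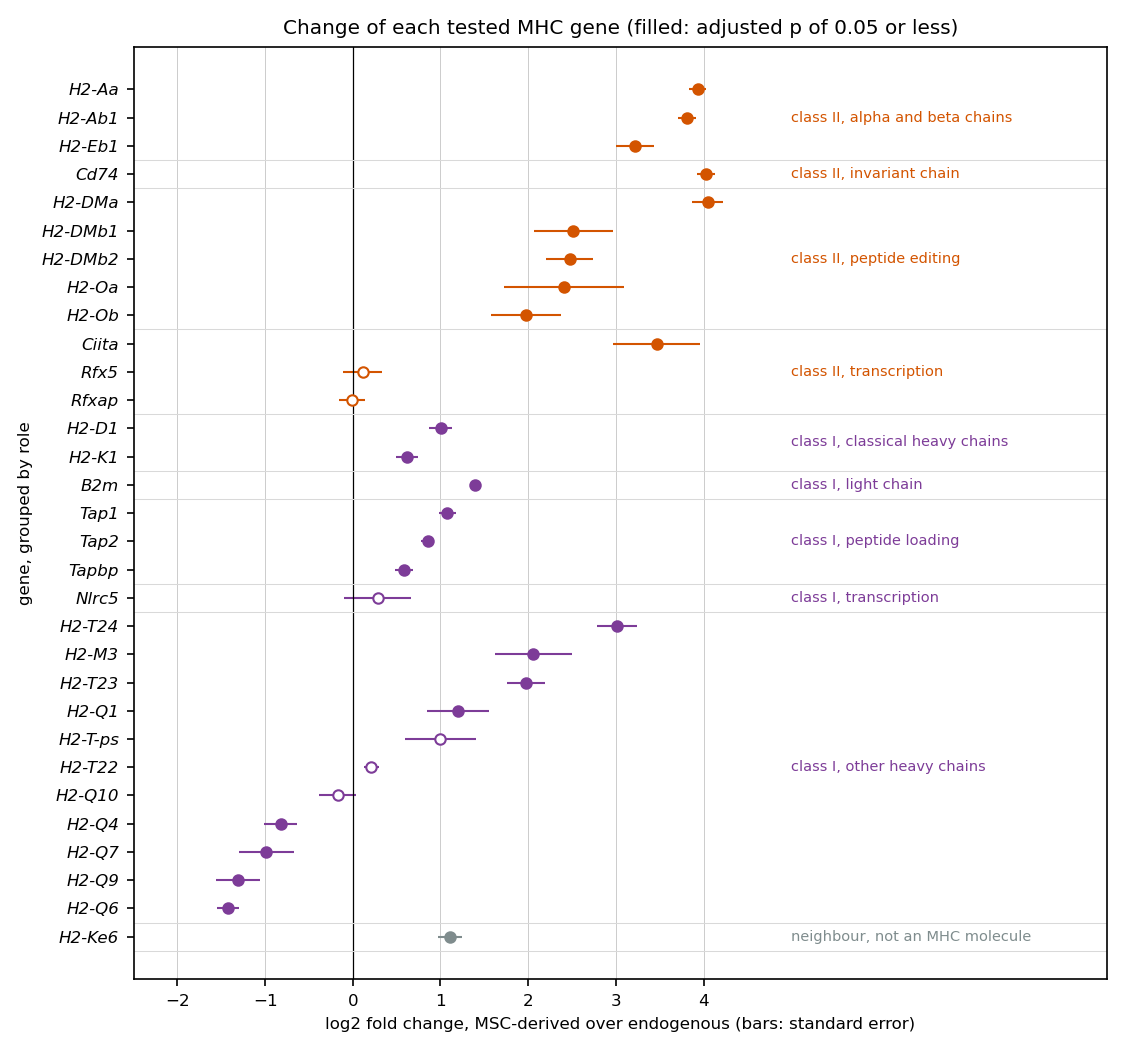
edgeR log2 fold change (MSC-derived over endogenous) of the 31 tested members, grouped by role, with bars of 1 standard error. Filled symbols have an adjusted p of 0.05 or less. The class II effectors lie between 1.98 and 4.05, whereas the other class I heavy chains run from -1.43 to 3.01.

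Ordered along chromosome 17, the changes fell into runs. From H2-Oa to H2-Eb1 all 10 tested genes were higher, and within this class II region the class I transporter genes Tap1 and Tap2 (1.08 and 0.86 on the log2 scale) had smaller changes than the nearest class II members on either side, H2-DMb1 (2.52) and H2-Ob (1.98), in RefSeq's order. Further along, H2-D1 and H2-Q1 were higher, the neighbouring H2-Q4, H2-Q6 and H2-Q7 were lower, and H2-T24 and H2-T23 were higher again. Adjacent genes of like sequence can share reads, so the runs are not independent observations.

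**Figure D3:**
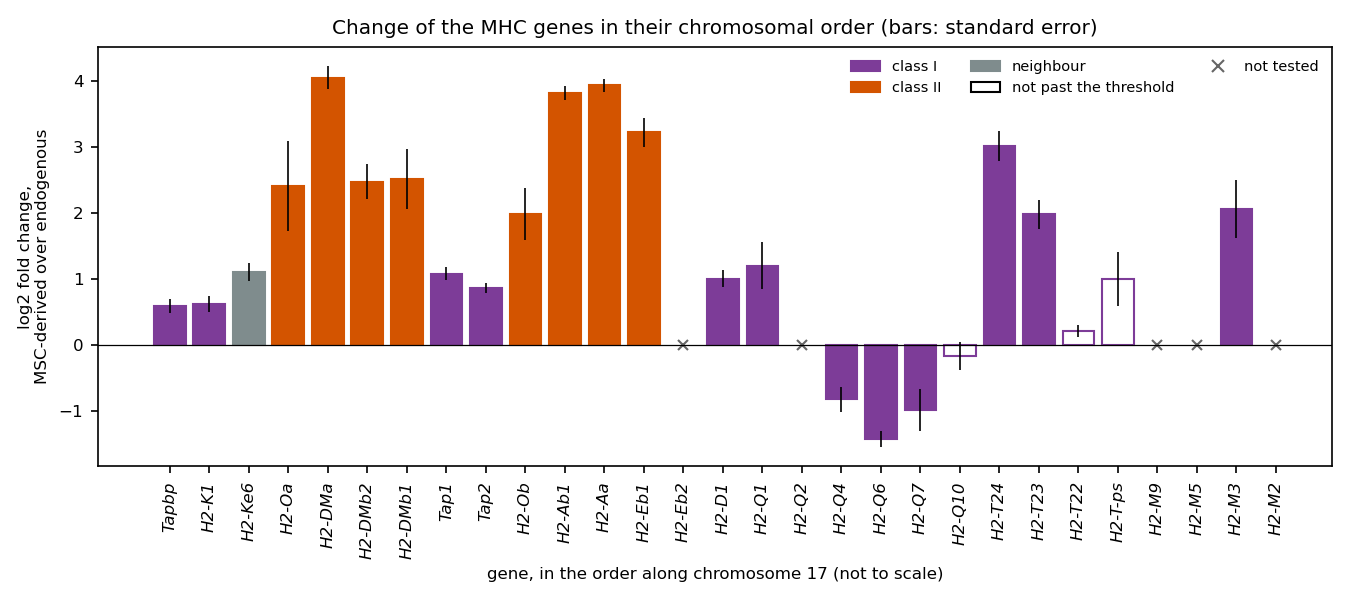
edgeR log2 fold change, with bars of 1 standard error, of the members on chromosome 17 in their order along the chromosome (not to scale, H2-Q9 left out because its place was uncertain). Open bars did not pass the threshold and crosses were not tested. H2-Q4, H2-Q6 and H2-Q7 are the only filled bars below 0 and stand between H2-Q1 and H2-T24, which are above it.

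In total, the members made up 1.07% to 1.11% of all TPM in the MSC-derived libraries and 0.528% to 0.555% in the endogenous libraries. The balance between the classes moved too. Summed class II alpha and beta chains had 927 ± 12.7 TPM (SD, n = 3) in the MSC-derived and 93.8 ± 14.6 TPM (SD, n = 3) in the endogenous libraries. Summed class I heavy chains had 4196 ± 97.97 TPM (SD, n = 3) against 3069 ± 364 TPM (SD, n = 3). Class II thus stood at 0.218 to 0.225 TPM per TPM of class I in the MSC-derived libraries and at 0.025 to 0.042 in the endogenous libraries, and class I transcripts outnumbered class II transcripts in every library of both groups.

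Genes that supply peptides to MHC molecules or work beside them were taken from lists of 46 genes, of which 42 were tested. Of these, 25 were higher and 8 lower, where 31.3% of all genes tested were higher and 30.3% lower. Without endogenous replicate 1, 13 were lower, where 38.6% of all genes tested were lower, and on leaving out any MSC-derived library, 5. In the fits without an MSC-derived library, 3761 to 3768 of 14717 to 14748 genes were lower. Of 7 class II peptide supply genes 6 were higher, led by the lysosomal proteases Ctss, which trims the invariant chain (1143 ± 23.8 against 15.8 ± 3.79 TPM, SD, n = 3, log2 fold change 6.64), and Ctsd (5737 ± 98.03 against 535 ± 65.1 TPM, 3.85). Of 10 class I peptide supply genes 7 were higher and 2 lower. The largest increases were those of the immunoproteasome subunits Psmb9 (157 ± 5.77 against 28.8 ± 1.56 TPM, log2 fold change 2.87) and Psmb8 (202 ± 7.58 against 46.3 ± 3.11 TPM, 2.57), while the chaperones Pdia3 (log2 fold change -0.31, edgeR adjusted p = 0.0208) and Calr (-0.23, adjusted p = 0.0320) were slightly lower. Ctss had a larger log2 fold change than any class II member, and Psmb9 and Psmb8 had larger ones than the transporter genes Tap1 and Tap2, beside which they lie.

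Of 14 regulators of MHC genes 5 were higher and 4 lower, with a median of 0.06 on the log2 scale, near the 31.3%, 30.3% and 0.05 of all genes tested. Irf8, a transcription factor of myeloid and B cells, had the largest increase (log2 fold change 4.66, edgeR adjusted p = 5.44e-06). Socs1, which restrains interferon signalling, had the largest decrease (-2.28, adjusted p = 3.25e-05), followed by Rfxank, the remaining RFX subunit (-0.93, adjusted p = 0.00098). The NF-Y subunits were not called, with log2 fold changes of 1.16 for Nfya (SE 0.44, adjusted p = 0.0529), -0.08 for Nfyb and -0.06 for Nfyc, and neither was Creb1 (0.17). Of the listed factors that join Ciita on class II promoters, Rfxank was thus lower and the others were not called with edgeR.

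All 5 costimulation genes tested were higher, led by Cd86 (115 ± 4.03 against 0.813 ± 0.760 TPM, SD, n = 3, log2 fold change 7.52, edgeR adjusted p = 1.71e-05) and Cd40 (6.82 ± 0.803 against 1.28 ± 0.452 TPM, 2.90, adjusted p = 0.000164), both of which are expressed by antigen-presenting cells. Cd86 had 1 to 52 expected counts in the endogenous libraries and passed the low-count filter only through the MSC-derived ones. Of the class I-like genes outside the MHC, 2 of 6 were higher and 2 lower, which is near the shares over all genes tested (31.3% and 30.3%). Hfe, which controls iron uptake (log2 fold change 2.16, adjusted p = 5.35e-06), and Fcgrt, the neonatal Fc receptor (1.52, adjusted p = 2.94e-05), were higher, while Mill2 (-2.29, adjusted p = 0.000302) and Procr, the endothelial protein C receptor (-0.63, adjusted p = 0.00456), were lower.

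**Figure D4:**
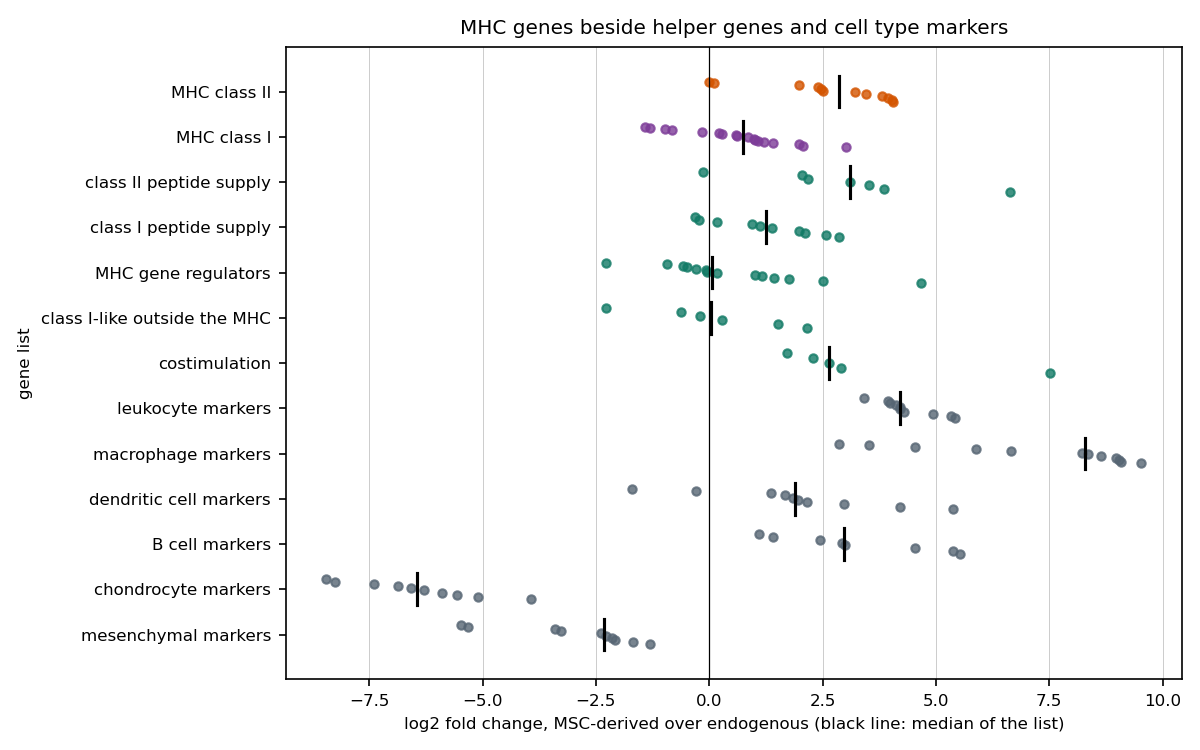
edgeR log2 fold changes of the tested genes of each list (points) with the list's median (black line). The class II genes (median 2.87) lie near the class II peptide supply genes (3.10), the B cell markers (2.96) and the costimulation genes (2.64). Their median is above that of the dendritic cell markers (1.90) and below those of the leukocyte (4.20) and macrophage markers (8.28). It depends on the genes listed, since the class II list includes Rfx5 (0.11) and Rfxap (-0.01), while its other genes ran from 1.98 to 4.05. Some class II, costimulation, B cell, dendritic cell and macrophage genes passed the low-count filter only through the MSC-derived libraries, which favours higher medians. The class I genes (0.74) lie on both sides of 0, and the chondrocyte (-6.44) and mesenchymal markers (-2.33) lie below 0.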

How the data were processed

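RNA of 3 MSC-derived and 3 endogenous libraries was sequenced. The methods name SOAPnuke for read filtering, HISAT2 and Bowtie2 for alignment and RSEM for quantification. The submitters' notes name Bowtie2 2.2.5, RSEM 1.2.12 and the mouse build mm9. For each library the authors deposited expected counts per gene, which are not normalized, and TPM, which is scaled to transcript length and to 1000000 per library. The analysis left aside 12 further columns of the same samples (FPKM and scaled counts) and 8 columns of averages, and each column name matched a sample or group. No gene coordinates were taken from the build of the files.

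Rounding the expected counts to integers altered 20.6% of all values and 49.5% of those of the members. The test was that of edgeR 4.0.16 under R 4.3.3 (TMM, filterByExpr, glmQLFit, glmQLFTest, group only), adjusted after Benjamini-Hochberg over all 14289 genes tested, with a threshold of 0.05, and the test was tried on simulated counts. In that trial a first limit on the recovery of changed genes was missed, and the limit was then set without the genes of lowest counts. The SE is the log2 fold change divided by the square root of F. Depth was 22060628 to 24881796 counts per library. TPM is given per library or as mean ± SD. Shared sequence was counted as 50-base windows of GENCODE M21 transcripts, and promoter windows came from RefSeq (GRCm38.p6). Alternatives were DESeq2 1.42.0, limma 3.58.1 on log2(TPM + 1) and log2(TPM + 0.1), 3 other scalings, 2 other filters, a threshold of 0.001, the replicate number as a block and each library left out in turn. Members and gene lists were chosen with earlier results of these data known. Every member is named. Values in every library are given for members past the threshold and for a core set, and for each list of helper genes the 2 largest changes in each direction, except 1 that is not reported here.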

Additional observations from a re-analysis of the deposited data

How the results depend on the processing

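Of the 31 members tested, 15 held their call and direction in every alternative, and of 527 member values over all alternatives 474 did so, 29 lost the call, 10 gained one and 14 changed sign. Leaving out 1 library in turn gave 9 to 12 higher and 3 to 6 lower class I members, 9 to 10 higher and 0 lower class II members, and 25 to 28 higher and 5 to 13 lower helper genes. The 13 lower helper genes came without endogenous replicate 1 and the 5 without any 1 MSC-derived library, against 8 with all libraries. Of all genes tested, 38.6% were lower without endogenous replicate 1 and 30.3% with all libraries. On leaving out an MSC-derived library, 3672 to 3722 genes were higher and 3761 to 3768 lower, of 14717 to 14748 tested. Without endogenous replicate 2, 3977 of 14482 genes were higher and 4253 lower. Without endogenous replicate 3, 4172 of 14484 genes were higher and 4080 lower. At a threshold of 0.001, 6 class I members were higher and 1 lower, 7 class II members were higher, and 4 helper genes were lower. The share of all genes past that threshold was not counted. With limma on TPM, 1 class II member (Rfxap) and 13 helper genes were lower under both pseudocounts and without the filter. Of all genes, 5948 (pseudocount 0.1) and 5962 (pseudocount 1) of 14289 were lower in these limma fits, and 5859 of 17854 without the filter. There the log2 fold change of H2-T22 was -0.22 in all fits, that of Rfx5 -0.30 (pseudocount 0.1) and -0.24 (pseudocount 1, with or without the filter), and that of Nlrc5 -0.0321 (pseudocount 0.1) and -0.0544 (pseudocount 1, with or without the filter). Rfxap turned positive without the filter (0.00399) and ran from -0.16 without endogenous replicate 1 to 0.0822 without endogenous replicate 3, with positive values also without MSC-derived replicate 1 or 3, and Rfx5 ran from -0.12 without endogenous replicate 1 to 0.215 without endogenous replicate 3. None of these sign changes was of a called value, and the cause was not tested. The labels give same-numbered libraries of the groups no link beyond the number. Correlations of their deviations from the group means were near 0 (r = 0.0130, 0.00222 and 0.0178). Endogenous replicates 1 and 3 correlated best with the same-numbered MSC-derived library, and endogenous replicate 2 with MSC-derived replicate 3. Values this near 0 cannot decide whether such libraries shared a batch. With the replicate number as a block, 9 class I members were higher and 4 lower, 10 class II members were higher, and 26 helper genes were higher and 7 lower, and the call for H2-Q1 was lost (adjusted p = 0.0516). In the block fit 4103 of all 14289 genes were higher and 3920 lower. With an expected count of 3 as the floor, H2-M2, H2-M5, H2-M9, H2-Q2 and H2-Eb2 could not be compared over all libraries at this depth. Without the filter none of them was called with edgeR on all libraries (adjusted p = 0.0593 to 0.841). The fit without endogenous replicate 1 applied the filter anew, and its 6 lower class I members were not limited to those tested with all libraries.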
